A study of Mus musculus with 6 samples.

Results

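The genes described here are the pocket proteins and the G1 cyclins, cyclin-dependent kinases and inhibitors that act on them, measured as DNA copy number in mouse malignant mesothelioma. The 10 names listed were Rb1, Rbl1, Rbl2, Cdk4, Cdk6, Ccnd1, Ccnd2, Ccnd3, Cdkn1a and Cdkn1b. A gene was kept where the denser of 2 array designs carries a probe under its name, which left 9 of the 10 genes, read by 65 probes of 232010 placed on that design, among 25701 gene names. Cdkn1b has no probe under that name there and was dropped. The 5 tumours, named ARF-104, ARF-128, ARF-129, ARF-112 and ARF-110, come from a study of asbestos-induced mesothelioma in Arf knock-out mice, whose text gives the genotype Arf (+/-) for 4 mice. The labels do not tell which 1 of the 5 is not among those 4. Primary mesothelioma cells are named for each tumour except ARF-104, for which no cell type is given. The DNA set against every tumour was that of C57BL/6J mice, and the age, sex and dose of the tumour-bearing animals were not given in the sources used here. All 5 tumours form 1 group, each array holds DNA of a single tumour, and no array of normal tissue from Arf (+/-) mice was used here. Changes in the tumour and differences between the host and C57BL/6J DNA therefore cannot be told apart.

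The pocket proteins Rb1, Rbl1 (p107) and Rbl2 (p130) bind E2F transcription factors and hold back the genes needed for DNA replication. Cyclins D1, D2 and D3, encoded by Ccnd1, Ccnd2 and Ccnd3, activate the kinases Cdk4 and Cdk6, which phosphorylate the pocket proteins and so release E2F. Cdkn1a (p21) and Cdkn1b (p27) inhibit cyclin-dependent kinases, and p21 is a target of p53. In human mesothelioma the pathway is most often affected through loss of CDKN2A, whose product p16 inhibits CDK4 and CDK6 and whose product ARF stabilises p53.

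On all 6 arrays tumour DNA carried Cy5 and C57BL/6J DNA Cy3. Values are log2 of tumour over C57BL/6J DNA, with the autosomal median of every array set to 0. Loss of 1 of 2 copies in every cell would give -1 and gain of 1 copy 0.58. A gene's level is the mean of its own probes, its flank is the mean of the other probes within 1 Mb before its first and after its last probe, and its segment is the stretch of even ratio that covers it. Positions are mm7, and the exon or intron in which a probe lies was not looked up because no annotation of that build was used here. ARF-110 was measured only on the sparser design, which carries 14 of the 65 probes and none of the 1 for Ccnd1. ARF-128 was measured on both designs and is represented by its denser array, titled ARF-128PlusMinus. Probe noise, the SD that neighbouring probes give for the log2 ratio of 1 probe, was 0.36 in ARF-104, 0.78 in ARF-128 (0.43 on its sparser array), 0.49 in ARF-129, 0.39 in ARF-112 and 0.15 in ARF-110. Every one of the 65 probes was well above background and unsaturated wherever it was measured.

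The clearest loss was that of Rb1 and its surroundings in ARF-112. The region of Rbl2 was gained in 3 tumours, where the gene's own probes averaged 0.07 to 0.22. Of 8 genes with a value in all 5 tumours, Rbl2 was below its flank (limma, Benjamini-Hochberg adjusted over all genes), where 8.39% of 20572 genes were, and none was above its flank, where 8.6% were. No level differed from 0, against 6.7% of 20688 genes below and 7.82% above. At an unadjusted limma p under 0.05, 3 of the 8 were below their flanks and 1 had a level below 0. The share of all genes at that unadjusted threshold was not taken, so these counts cannot be read as an excess. The median difference from the flank was -0.07 over the 8 genes and -0.0027 over all genes tested. By segment, 4 of 45 gene-by-tumour pairs were lost (8.89%) and 8 were gained (17.8%), beside 9.35% and 13.7% of all pairs. Each of the 9 genes lay in a called segment in at least 1 tumour, and Rbl2 in 3. The share of all genes so placed was not taken, and in ARF-129 alone 30.8% of all genes were lost and 21.3% gained.

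**Figure D1:**
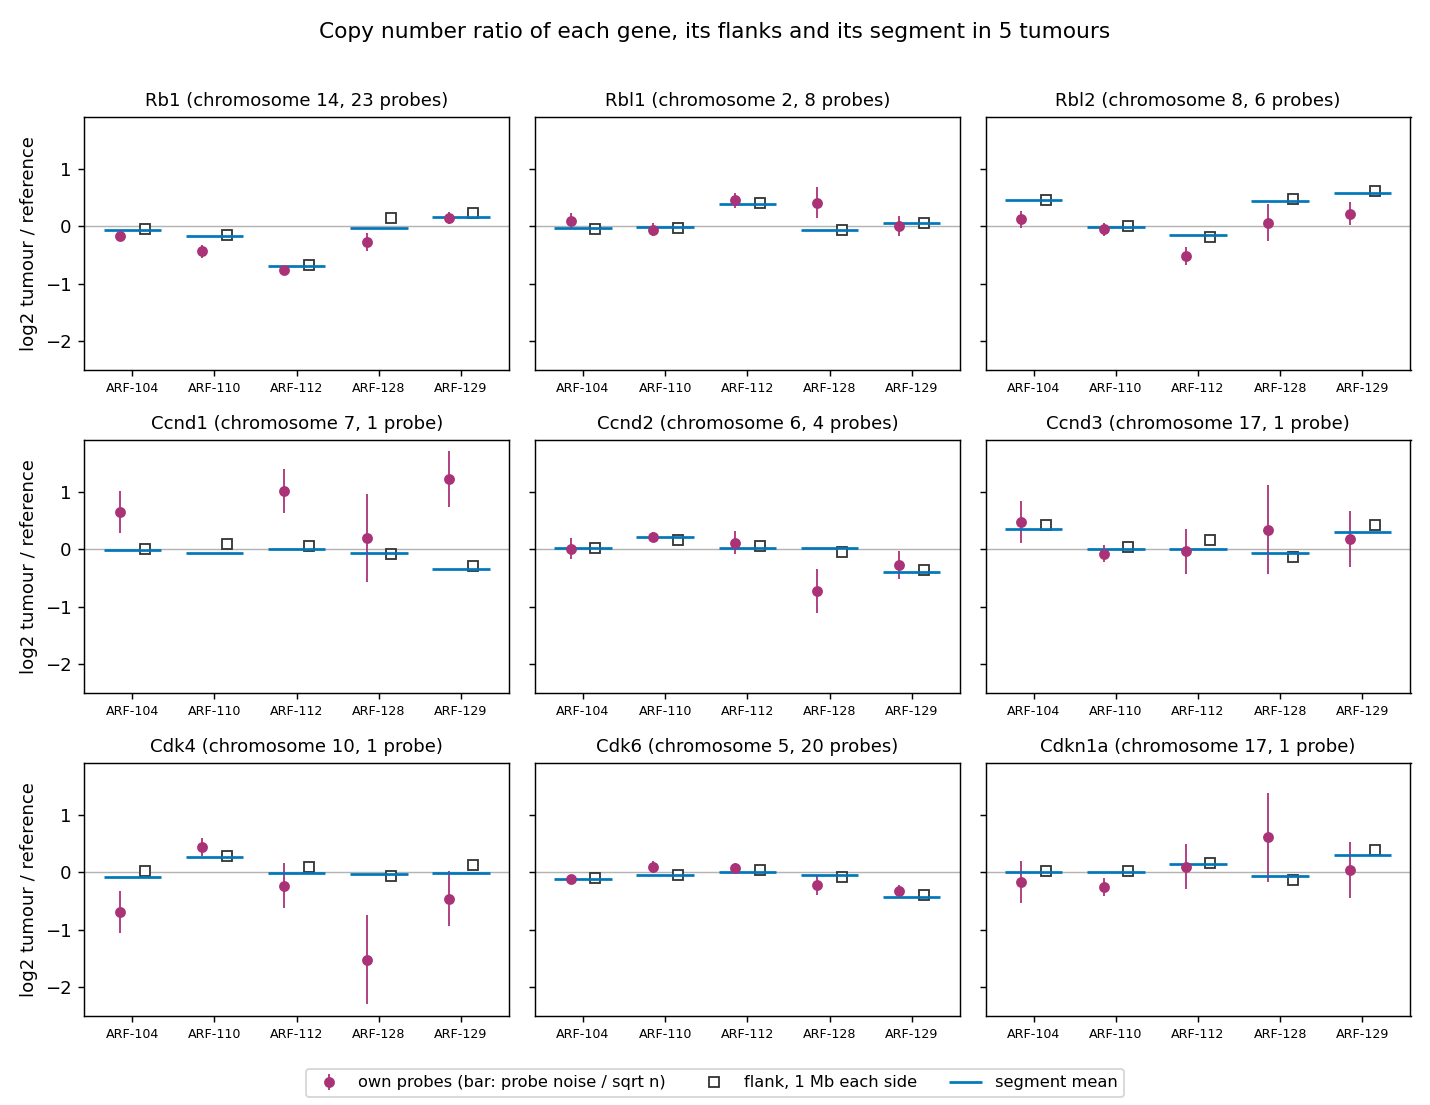
Log2 ratio of tumour over C57BL/6J DNA (vertical axis) for 9 genes in 5 tumours (horizontal axis). Filled circles are the mean of a gene's own probes with the probe noise divided by the square root of the probe number, open squares the flanking 1 Mb on either side and lines the segment mean; the segment of Rb1 in ARF-112 lies at -0.69 and those of Rbl2 at 0.44 to 0.58 in 3 tumours.

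Rb1, the retinoblastoma protein gene, is read by 23 probes from 67877385 to 68003906 on chromosome 14, of which 2 are on the sparser design. Those 2 probes carry the gene's value in ARF-110, and another probe is shown with them because it gave the lowest Rb1 ratio on each of the 4 denser arrays. Sequences are written as the scanner files give them, whose strand was not given in the sources used here, with each CpG in capitals. The 65 probes are 47 to 60 bases long, with a median GC content of 36.7%, as over all placed probes, and 29 of them (44.6%) hold a CpG, against 34.6% of all placed probes.
Rb1 probe A_53_P129663 (chr14:67920055-67920114): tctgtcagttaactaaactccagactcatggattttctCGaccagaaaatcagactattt
Rb1 probe A_53_P103112 (chr14:67921649-67921708): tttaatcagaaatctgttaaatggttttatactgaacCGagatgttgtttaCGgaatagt
Rb1 probe A_67_P02883649 (chr14:67925524-67925583): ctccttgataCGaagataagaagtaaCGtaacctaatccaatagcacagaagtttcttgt

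In ARF-112 the Rb1 level was -0.77, or 58.6% of C57BL/6J DNA, and all 23 probes were below 0, at -1.33 to -0.30. The flank stood at -0.67, with -0.70 before the gene and -0.65 after it. The gene lay in a lost segment of mean -0.69 over 3142 probes, from 47090888 to 75490179 on chromosome 14, so the loss took in Rb1 and its surroundings alike. In this tumour 10.9% of all genes were in lost segments, and Rb1 was the 1 gene of the 9.

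The other tumours gave Rb1 levels of -0.17 in ARF-104, -0.27 in ARF-128, 0.15 in ARF-129 and -0.44 in ARF-110, with flanks of -0.04, 0.15, 0.24 and -0.15 in that order. Their segments lay between -0.16 and 0.16 and none was called. The mean level was -0.30 ± 0.34 (SD, n = 5), with a limma adjusted p of 0.143. Rb1 was below its flank in 5 of 5 tumours, with differences of -0.42 to -0.09. Of all genes, 18.1% were below their flanks in every tumour. The difference of -0.29 in ARF-110 rests on 2 probes that read below the gene's level on every denser array. They gave -0.52 and -0.59 in ARF-104, -1.23 and -1.28 in ARF-128, -0.41 and 0.06 in ARF-129, and -1.07 and -1.10 in ARF-112. Over probes shared by both designs the mean level was -0.68 and the mean difference -0.40. How far these probes set the value in ARF-110 was not tested. The mean difference of -0.20 ± 0.15 (SD, n = 5; 95% interval -0.36 to -0.04) did not pass adjustment (limma adjusted p = 0.0735). It passed in 2 of 21 alternative settings, and with normexp background correction it was -0.05.

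Rbl1 encodes p107, a pocket protein that acts mostly in cycling cells, and its 8 probes lie from 156888054 to 156936592 on chromosome 2. Its level was 0.10 in ARF-104, 0.41 in ARF-128, 0.00 in ARF-129, 0.45 in ARF-112 and -0.06 in ARF-110. The flanks were -0.05, -0.07, 0.05, 0.41 and -0.03 in the same order. Thus in ARF-112 gene and flank were high together, within a gained segment of mean 0.39 over 6778 probes that reached from 111301903 to the last probe at 182489782. In ARF-128 only the gene's own probes were high on the denser array, and they ranged from -0.64 to 1.58 about a segment of -0.06. On the sparser array of ARF-128 the Rbl1 level was 0.08, from 2 probes, and its difference from the flank 0.14. The mean level of 0.18 ± 0.24 and the mean difference from the flank of 0.12 ± 0.22 (SD, n = 5 each) did not pass the test, with limma adjusted p of 0.257 and 0.339.

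Rbl2 encodes p130, the pocket protein most abundant in resting cells. Of the 8 genes with a value in all 5 tumours it was the 1 whose own probes differed from their surroundings by the test, and its 6 probes are shown in order along chromosome 8; the second and the third are the pair also on the sparser design.
Rbl2 probe A_67_P06594086 (chr8:89668570-89668629): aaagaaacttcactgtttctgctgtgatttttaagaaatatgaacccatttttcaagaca
Rbl2 probe A_53_P139419 (chr8:89678130-89678189): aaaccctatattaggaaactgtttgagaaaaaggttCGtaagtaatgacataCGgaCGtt
Rbl2 probe A_53_P130621 (chr8:89689326-89689385): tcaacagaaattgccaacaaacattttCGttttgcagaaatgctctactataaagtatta
Rbl2 probe A_67_P06594158 (chr8:89693869-89693928): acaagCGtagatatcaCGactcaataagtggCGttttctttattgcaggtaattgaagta
Rbl2 probe A_67_P06594174 (chr8:89698821-89698880): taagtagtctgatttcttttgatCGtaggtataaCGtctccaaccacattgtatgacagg
Rbl2 probe A_67_P06594194 (chr8:89706480-89706539): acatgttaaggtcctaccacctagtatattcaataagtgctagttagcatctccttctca

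The Rbl2 level was 0.12 in ARF-104, 0.07 in ARF-128, 0.22 in ARF-129, -0.52 in ARF-112 and -0.05 in ARF-110, a mean of -0.03 ± 0.29 (SD, n = 5). The flank was 0.47, 0.48, 0.62, -0.19 and 0.01 in the same order, a mean of 0.27 ± 0.35. The region was thus high in 3 tumours, while the gene's own 6 probes averaged 0.07 to 0.22 there. On the sparser array of ARF-128 the level was 0.29, from 2 probes, and the flank 0.41. The segments were gained in the 3 tumours, at 0.45 in ARF-104, 0.44 in ARF-128 and 0.58 in ARF-129, where gained segments held 15.3%, 8.4% and 21.3% of all genes. In ARF-128 the gained segment was the whole of chromosome 8 and in ARF-129 it ran from the first probe to 103187680. A segment gained in 3 or more tumours covered 12.9% of all genes.

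Rbl2 was below its flank in 5 of 5 tumours. The difference was -0.35 in ARF-104, -0.41 in ARF-128, -0.40 in ARF-129, -0.33 in ARF-112 and -0.06 in ARF-110, so 4 tumours lay close together and ARF-110 near 0. On the sparser array of ARF-128 the difference was -0.12. The mean was -0.31 ± 0.14 (SD, n = 5; 95% interval -0.47 to -0.15), with a limma adjusted p of 0.0372. That fit and interval take the 5 tumours as independent. Over all genes, the limma consensus correlation of differences within a scan day was 0.873. The value in ARF-110 rests on 2 of the 6 probes, and over these 2 probes and shared flanking probes in all tumours the difference was -0.02 (limma adjusted p = 0.891). Within the 3 tumours scanned on 1 day it was -0.36 (limma adjusted p = 0.00327), in a fit that called 26.8% of all genes lower and 29.1% higher. With the scan day as a random block the difference was -0.28 (limma adjusted p = 0.344), and with normexp background correction -0.12 (0.117). The limma adjusted p was 0.133 without ARF-104, 0.145 without ARF-129 and 0.142 without ARF-112, and limma called 0 of all genes in each of these fits. Without ARF-110 it was 0.00935 and without ARF-128 0.043, where 15.9% and 10.2% of all genes were called lower.

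The 6 probes disagreed with each other in the same way on the 4 denser arrays. The fourth, A_67_P06594158, was the highest on 4 of 4, with 0.72 in ARF-104, 1.11 in ARF-128, 0.92 in ARF-129 and -0.11 in ARF-112. The sixth, A_67_P06594194, gave -0.61, -0.57, -0.49 and -1.03 in the same tumours and was the lowest on 3 of 4. The fourth was thus above the flank mean in each of these tumours, and the sixth below it. The GC content averaged 34.7% over the 6 probes and 36.4% over the flank, and the log2 ratio was higher at higher probe GC on every array (r = 0.0756 to 0.198 over all autosomal probes, a description). With each array's median ratio at the same GC content taken off, the difference was -0.26 and the limma adjusted p 0.0451.

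**Figure D2:**
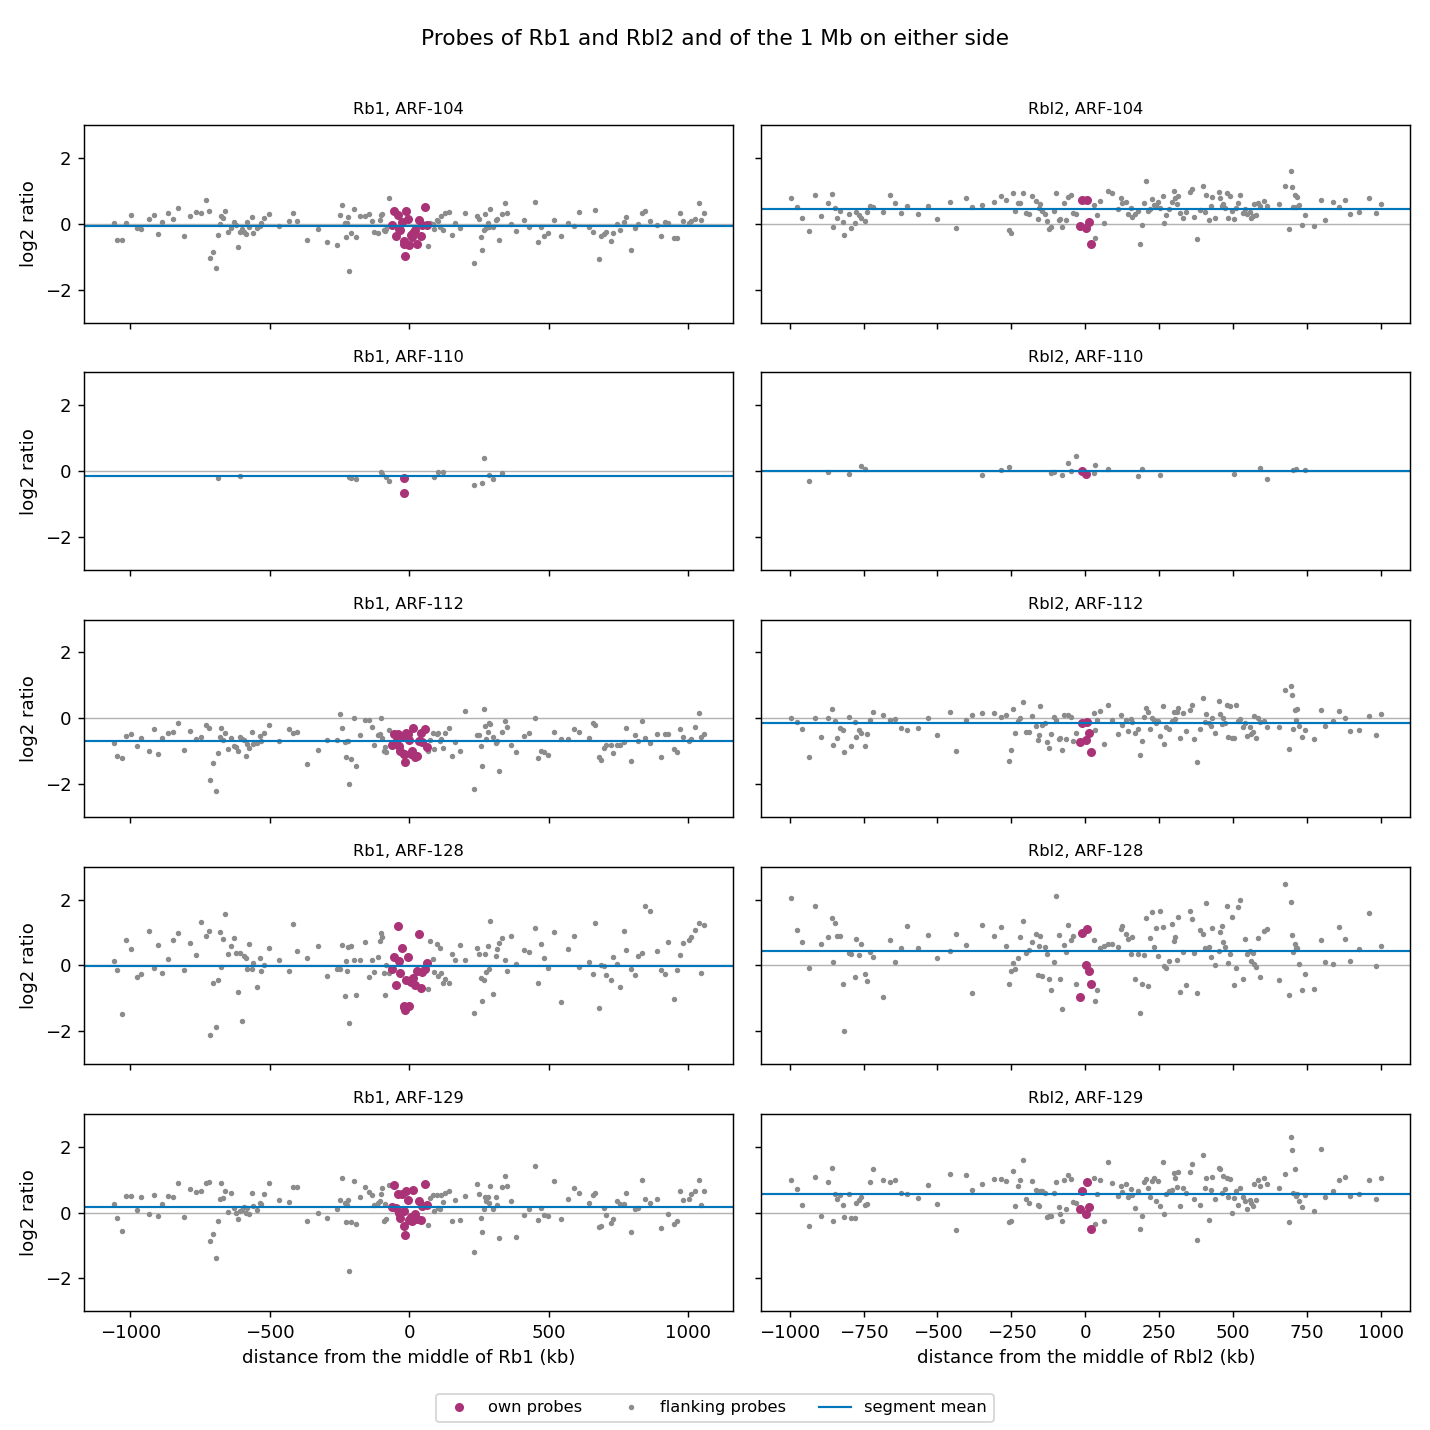
Log2 ratio of single probes (vertical axis) against distance in kb from the middle of Rb1 (left column) and Rbl2 (right column), 1 row for each tumour. Large points are the gene's own probes, small grey points the flanking probes and the line the segment mean; in ARF-112 all 23 Rb1 probes lie below 0 with their flank, and the Rbl2 segment lies at 0.58 in ARF-129.

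The kinases Cdk4 and Cdk6, which phosphorylate the pocket proteins when bound to a D cyclin, were covered very unequally. Cdk4 is read by 1 probe, so each of its values carries the full probe noise.
Cdk4 probe A_53_P134538 (chr10:126564763-126564822): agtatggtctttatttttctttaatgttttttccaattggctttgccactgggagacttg

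The Cdk4 probe read -0.70 in ARF-104, -1.53 in ARF-128, -0.46 in ARF-129, -0.23 in ARF-112 and 0.45 in ARF-110. The flanks, of 73 probes in ARF-110 and 297 in the others, read 0.02, -0.07, 0.12, 0.10 and 0.29 in the same order. The probe was thus below its flank in 4 of 5 tumours and above it in ARF-110, where the gene lay in a gained segment of mean 0.27, just past the threshold of 0.25. On the sparser array of ARF-128 the same probe read -0.10. The mean difference from the flank was -0.59 ± 0.59 (SD, n = 5; limma adjusted p = 0.0949) and the mean level -0.49 ± 0.72 (limma adjusted p = 0.168). Without ARF-110 the difference was -0.77 (limma adjusted p = 0.0387) and without ARF-128 it was -0.37 (limma adjusted p = 0.11).

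Cdk6 has 20 probes from 3351959 to 3528141, near the first probes of chromosome 5. Its level was -0.12 in ARF-104, -0.22 in ARF-128, -0.33 in ARF-129, 0.07 in ARF-112 and 0.10 in ARF-110, with flanks of -0.09, -0.09, -0.40, 0.04 and -0.05. The difference of gene and flank ranged from -0.13 in ARF-128 to 0.14 in ARF-110. On the sparser array of ARF-128 the Cdk6 level was 0.36, from 2 probes, and its difference from the flank 0.51. ARF-129 carried a lost segment of mean -0.43 over 1721 probes, to 23252036, and 16 of the 20 Cdk6 probes were below 0 there. The mean difference from the flank was 0.02 ± 0.10 (SD, n = 5; 95% interval -0.12 to 0.15; limma adjusted p = 0.839).

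The probes of the well-covered genes were high and low at the same places from tumour to tumour. The lowest Rb1 probe was the tenth of 23 on 4 of 4 denser arrays, and the lowest Cdk6 probe the seventh of 20 on 3 of 4. Over the 23 Rb1 probes the ratios of 2 tumours correlated at r = 0.482 to 0.867 (6 pairs of 4 arrays), over the 20 Cdk6 probes at 0.548 to 0.908 and over the 6 Rbl2 probes at 0.824 to 0.988. Over all autosomal probes, after the segment mean was taken off, r was 0.591 to 0.892. These are descriptions across probes that share sequences, design and C57BL/6J DNA, and the part of this pattern in the differences from the flanks was not tested. The Cdk6 probe is shown beside its values, -0.92 in ARF-104, -1.06 in ARF-128, -1.68 in ARF-129 and -0.63 in ARF-112.
Cdk6 probe A_67_P05465803 (chr5:3396738-3396795): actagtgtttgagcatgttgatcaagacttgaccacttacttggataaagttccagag

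**Figure D3:**
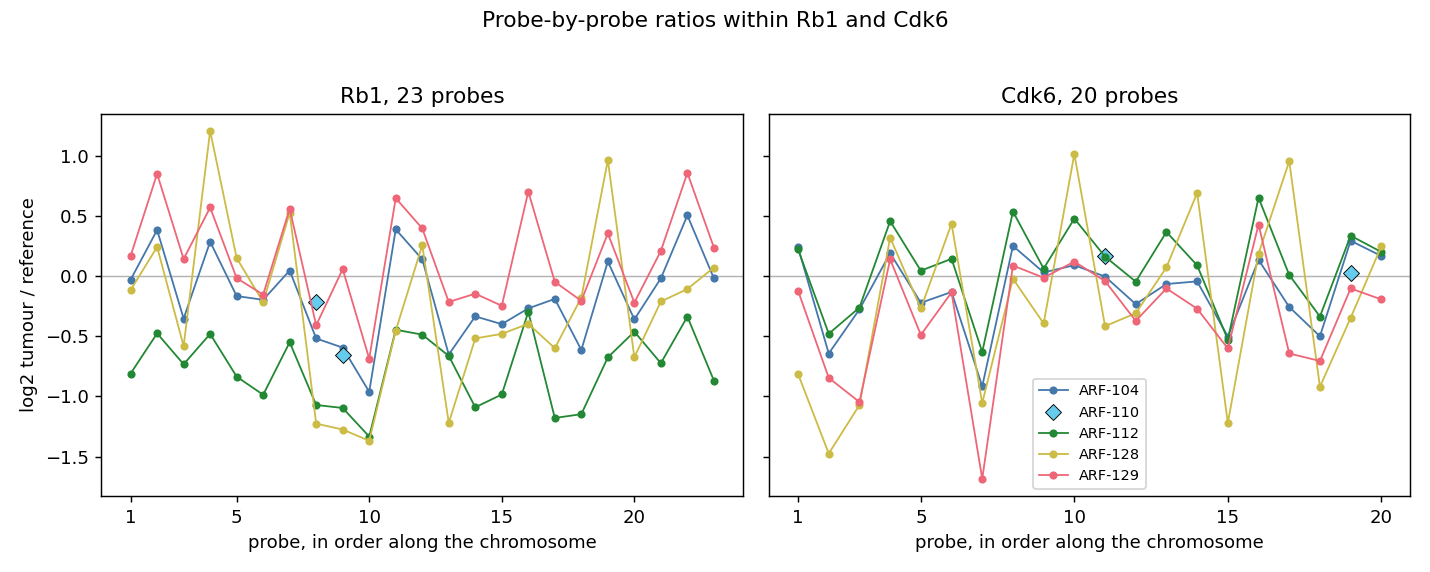
Log2 ratio (vertical axis) of the 23 probes of Rb1 and the 20 probes of Cdk6 in order along the chromosome (horizontal axis), 1 line for each tumour on the denser design and diamonds for the 2 probes of each gene in ARF-110. The lines dip at the same probes, such as the tenth of Rb1, and the ARF-112 line lies below 0 throughout Rb1.

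The D cyclins activate Cdk4 and Cdk6, and cyclin D1 is often amplified in human cancers. Ccnd1 is read by 1 probe of 50 bases and 42% GC at 141356305 to 141356354 on chromosome 7, near the end of the chromosome, and had the highest mean level of the 9 genes.
Ccnd1 probe A_67_P06405653 (chr7:141356305-141356354): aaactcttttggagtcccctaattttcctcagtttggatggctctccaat

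The Ccnd1 probe read 0.65 in ARF-104, 0.20 in ARF-128, 1.23 in ARF-129 and 1.02 in ARF-112. The 148 flanking probes read 0.01, -0.07, -0.28 and 0.06 in the same order, so the probe was above its flank in 4 of 4 tumours while none of the segments was gained. In ARF-129 the segment was lost, at -0.35 over 2215 probes. With genes of 4 or 5 tumours admitted, the mean level of 0.78 ± 0.45 (SD, n = 4) had a limma adjusted p of 0.0255 and the mean difference of 0.85 ± 0.52 one of 0.0431, where 9.12% of 25699 genes had a level above 0 and 10.9% of 25697 were above their flanks. The difference lost its call at 0.91 without ARF-104 (limma adjusted p = 0.12), 0.63 without ARF-129 (0.121), 0.81 without ARF-112 (0.142) and 0.67 with the scan day as a random block (0.498). The level lost its call in the same settings, at 0.82 without ARF-104 (limma adjusted p = 0.076), 0.62 without ARF-129 (0.125), 0.69 without ARF-112 (0.106) and 0.68 with the block (0.117). The sparser design carries another probe named Ccnd1, which read -0.02 in ARF-110 and -0.02 in ARF-128.

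Ccnd2 has 4 probes from 127153030 to 127172846 on chromosome 6. Its level was 0.01 in ARF-104, -0.73 in ARF-128, -0.27 in ARF-129, 0.12 in ARF-112 and 0.22 in ARF-110, against flanks of 0.03, -0.05, -0.35, 0.05 and 0.17. The gene followed its flank within 0.08 in 4 tumours and differed by -0.68 in ARF-128. On the sparser array of ARF-128 the level was 0.27, from 3 of these probes. The segment in ARF-129 was lost, at -0.40 over 4104 probes from 104331168 to 144380118, and that in ARF-110, at 0.21, lay just under the threshold for a gain. The mean difference from the flank was -0.10 ± 0.33 (SD, n = 5; limma adjusted p = 0.563).

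Ccnd3 is read by 1 probe under its own name.
Ccnd3 probe A_53_P169529 (chr17:45733333-45733385): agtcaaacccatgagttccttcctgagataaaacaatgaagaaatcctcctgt

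This probe read 0.48 in ARF-104, 0.34 in ARF-128, 0.19 in ARF-129, -0.04 in ARF-112 and -0.08 in ARF-110, against flanks of 0.43, -0.13, 0.42, 0.16 and 0.05. Gained segments covered it in ARF-104, at 0.36, and in ARF-129, at 0.30. The mean difference of -0.01 ± 0.29 (SD, n = 5; limma adjusted p = 0.958) did not pass the test. On the sparser array of ARF-128 the same probe read -0.46, a difference of -0.50 from the flank, against 0.47 on the denser array. On the sparser design 3 further probes are named Ccnd3, and the denser design names them AK161758, a thymus cDNA annotated there as cyclin D3. The 12 AK161758 probes of the denser design, the nearest ending at 45726758, gave 0.40 in ARF-104, -0.14 in ARF-128, 0.36 in ARF-129 and 0.23 in ARF-112, and 3 of them gave 0.09 in ARF-110. Their difference from the flank was 0.01 ± 0.06 (SD, n = 5), a smaller spread than that of the single probe named Ccnd3.

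The inhibitor gene Cdkn1a, encoding p21, has 1 probe, at 27289349 to 27289408 on chromosome 17.
Cdkn1a probe A_53_P150620 (chr17:27289349-27289408): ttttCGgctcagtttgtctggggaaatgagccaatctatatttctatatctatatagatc

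The Cdkn1a probe read -0.16 in ARF-104, 0.61 in ARF-128, 0.04 in ARF-129, 0.10 in ARF-112 and -0.25 in ARF-110, against flanks of 0.03, -0.13, 0.40, 0.17 and 0.02. It was below its flank in 4 of 5 tumours and above it in ARF-128, and the same probe read -0.82 on the sparser array of that tumour. The mean difference was -0.03 ± 0.44 (SD, n = 5; limma adjusted p = 0.906), and without ARF-128 it was -0.22 (limma adjusted p = 0.0489). Cdkn1a and Ccnd3 lie 18443925 bp apart on chromosome 17. In ARF-129 a single gained segment of mean 0.30 spanned the chromosome and held both, whereas in ARF-104 a boundary at 32730809 left Cdkn1a in a segment of 0.00 and Ccnd3 in 1 of 0.36.

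Cdkn1b, encoding p27, was dropped by the rule, but 1 probe named Cdkn1b on the sparser design is on the denser design under the name BC014296. It was looked up after its values were known and is not counted above.
BC014296 probe A_53_P179090 (chr6:134938600-134938659): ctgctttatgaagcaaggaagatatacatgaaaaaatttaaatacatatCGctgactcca

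The probe read -0.48 in ARF-104, -1.02 in ARF-128, -1.05 in ARF-129, -0.46 in ARF-112 and 0.23 in ARF-110, and 0.19 on the sparser array of ARF-128. Its difference from the flank was -0.58 ± 0.39 (SD, n = 5; limma adjusted p = 0.046) and ranged from -1.10 in ARF-128 to -0.01 in ARF-110. By the same test 8.39% of 20572 genes were below their flanks. The probe's GC content was 31.7%, against 36.7% over the flank, and how this bears on the difference was not tested. The probe lies 7765754 bp past Ccnd2, and the lost segment of ARF-129 on chromosome 6 held both.

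**Figure D4:**
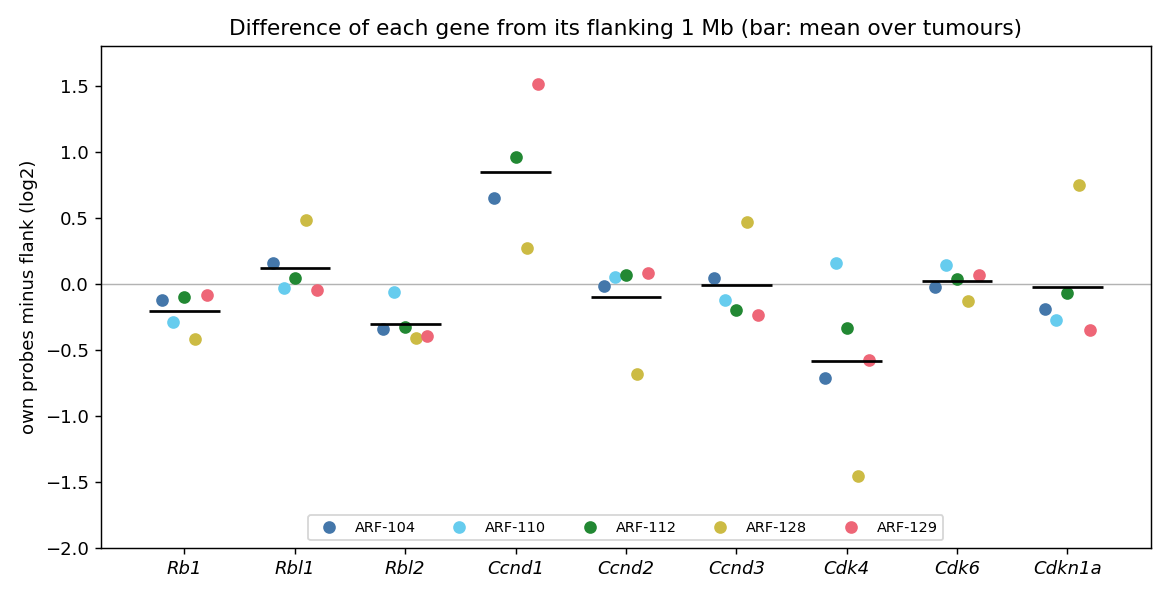
Log2 ratio of each gene's own probes minus that of its flanking 1 Mb (vertical axis) for 9 genes (horizontal axis). Points are tumours and bars their mean; Rb1 and Rbl2 lie below 0 in 5 of 5 tumours, Ccnd1 above 0 in the 4 measured, and ARF-128 is the farthest from 0 for Rb1, Rbl1, Rbl2, Ccnd2, Ccnd3, Cdk4 and Cdkn1a.

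Ordered by mean level, Ccnd1 came first with 0.78 in 4 tumours, then Rbl1 (0.18), Ccnd3 (0.18), Cdkn1a (0.07), Rbl2 (-0.03), Cdk6 (-0.10), Ccnd2 (-0.13), Rb1 (-0.30) and Cdk4 (-0.49). From Rbl1 down, the gap between neighbours was smaller than the SD over tumours of either, which was 0.18 to 0.72. The tumours differed in which of these genes lay in called segments. In ARF-129 lost segments covered Cdk6, Ccnd1 and Ccnd2 and gained segments covered Rbl2, Ccnd3 and Cdkn1a, in a genome of which 30.8% of genes were lost and 21.3% gained. The own probe of Ccnd1 nevertheless read 1.23 in that tumour and that of Cdkn1a 0.04. In ARF-112 a lost segment covered Rb1 and a gained segment Rbl1, with 10.9% of all genes lost and 10.3% gained. Gained segments covered Rbl2 and Ccnd3 in ARF-104 (0.494% of all genes lost, 15.3% gained), Rbl2 in ARF-128 (1.79% lost, 8.4% gained) and Cdk4 in ARF-110 (2.73% lost, 13.2% gained).

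The 2 arrays of ARF-128 can be set against each other at 14 of these probes. They differed by a median of 0.75 and at most 1.51, and 6 of the 14 had opposite signs, whereas over 40276 probes on both arrays the median difference was 0.53 (r = 0.409). Single-probe values of this tumour are the least precise of those given.

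Among genes read by at least 3 probes on another chromosome, the 1 with the nearest values over the 5 tumours was named for each gene. For Rb1 it was Hmgb2l1 on chromosome 8, with a mean absolute difference of 0.12, and for Rbl2 it was Epsti1 on chromosome 14, with 0.0456. For Cdk4 it was 2010321M09Rik on chromosome 9, at 0.16, and for the other 6 genes, over 4 tumours for Ccnd1 and 5 for the rest, the nearest lay at 0.0316 to 0.0854. They were the best of 11395 to 11877 candidates, so that a close match is not itself a result.

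The wider G1 and G1/S list held 38 genes, of which 33 had probes and 31 a value in every tumour. Of the 31, 4 had a level below 0 and none above, 3 were below their flanks and 2 above, beside the 6.7%, 7.82%, 8.39% and 8.6% of all genes. By segment, 27 of 165 pairs were lost (16.4%) and 25 gained (15.2%), beside 9.35% and 13.7% of all pairs. The pairs are not independent, because neighbouring genes share segments, as Ccna1, Ccna2, E2f5 and Fbxw7 did in ARF-112 (-0.27). In ARF-129 30.8% of all genes were lost, and the lost pairs include Cdkn2a itself in 4 tumours. Whether the list was lost more often than other genes was not tested. With the scan day as a random block, and in each fit without ARF-104, ARF-129 or ARF-112, none of these 4 level and 5 difference calls was kept. In each of these fits limma called 0 differences over all genes. Levels called lower over all genes numbered 3 with the block, 79 without ARF-104 and 0 without ARF-129 or ARF-112. Without ARF-110, 3 level and 5 difference calls were kept, and without ARF-128, 2 and 5. Of all genes, 15.9% and 10.2% were then below their flanks, and 15.8% and 12.1% above. With the block the limma adjusted p was 0.128 to 0.17 for the levels and 0.344 to 0.358 for the differences. Among the inhibitors, Cdkn2c, which encodes the CDK4 and CDK6 inhibitor p18, had a level of -0.38 ± 0.18 (limma adjusted p = 0.0372, n = 5), with values of -0.58 to -0.20, although its segment was lost in ARF-129 only. Cdkn2a, the locus that holds Arf, lay in lost segments in 4 of 5 tumours, at -3.30 in ARF-104, -0.66 in ARF-128, -0.62 in ARF-129 and -0.56 in ARF-112, where 0.654% of all genes were lost in 3 or more. In ARF-110 its segment was -0.19. The Arf (+/-) genotype is given for 4 mice, and how an inactivated Arf allele bears on these probes was not tested.

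Of the cyclin E and A genes, Ccne1, the partner of Cdk2, had a level of -0.42 ± 0.28 (SD, n = 5; limma adjusted p = 0.0461). Among the E2F factors, through which the pocket proteins act, E2f5 had a level of -0.38 ± 0.22 (limma adjusted p = 0.0442, n = 5) and E2f3 stood 0.34 ± 0.14 above its flank (limma adjusted p = 0.0358, n = 5). E2f4, the usual partner of p130, and Tfdp1, a dimer partner of E2F, lie on chromosome 8 with Rbl2, in segments gained in the same 3 tumours. Tfdp2, another dimer partner, differed from its flank by -0.16 ± 0.02 (limma adjusted p = 0.0484, n = 5). E2f6 lay in lost segments in 3 tumours, at -0.34 in ARF-129, -0.31 in ARF-112 and -0.39 in ARF-110, and its own probes averaged 0.22 in ARF-129, 0.29 in ARF-112 and -0.36 in ARF-110.

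Lin9, a subunit of a complex that assembles with p107 or p130 and E2F, was the gene of the list lower by both measures, with a level of -0.35 ± 0.18 (limma adjusted p = 0.0456) and a difference of -0.34 ± 0.10 (limma adjusted p = 0.0357, n = 5 each). On chromosome 15, Skp2, which directs p27 to degradation, Fbxo4, which does so for cyclin D1, and Myc lay in gained segments in 4 of 5 tumours, at 0.36 to 0.68, and not in ARF-128. Fbxo4 differed from its flank by -0.30 ± 0.09 (limma adjusted p = 0.0357) and Skp1a, a subunit shared by these ligases, 0.23 ± 0.12 above its own (limma adjusted p = 0.0469, n = 5 each). The Myc level, from 1 probe, was 0.91 in ARF-104, -0.61 in ARF-128, 1.12 in ARF-129, 0.93 in ARF-112 and 0.59 in ARF-110, with a limma adjusted p of 0.106.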

How the data were processed

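Genomic DNA of 5 tumours was hybridised on 6 two-colour Agilent arrays against C57BL/6J DNA. Per the file headers, the authors' processed intensity in both channels came from Agilent Feature Extraction, version 8.5.1.1 for the sparser design and 9.1.3.1 or 9.5.3.1 for the denser one; the labels state digestion with AluI and RsaI, for which no probe of the 9 genes holds a site. The authors deposited a value table with the same ratios as log10 values on the sparser design and log2 values on the denser one. The build mm7 is given in 1 denser-design header and was used for all probes by name; for the sparser design it was not given in the sources used here.

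From the intensities, log2 red over green was taken, without control and outlier spots, with repeated probes averaged and each array centred on its autosomal median. Differences from flanks (at least 5 flanking probes) and levels were tested against 0 with limma 3.58.1 (intercept, eBayes, Benjamini-Hochberg over all genes, threshold 0.05), which leaves out the spread of the C57BL/6J DNA. The titles were taken to name separate animals. If they do not, p-values measure technical spread. The main fits and their intervals take tumours scanned on 1 day as independent. The limma consensus correlation within a scan day was 0.873 for differences from flanks and 0.408 for levels. Segments of 5 or more probes came from PELT, with a penalty of 5 log n, and were called at 0.25 in either direction. The number of arrays limits the precision. Genes, lists and alternatives were chosen with earlier results of these data known. All 9 genes were named, and of the wider list those past the test or called in 3 or more tumours. The procedures were tested on simulated data with noise drawn independently for each array. The pattern that probes share from tumour to tumour was not simulated. Python 3.11.15 (pandas 2.3.3, numpy 2.4.6, numba 0.67.0, matplotlib 3.10.9) and R 4.3.3 with statmod 1.5.0 were used.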

Additional observations from a re-analysis of the deposited data

Results flagged for a closer look

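Of 18 sets of values examined (the level and the difference from the flank of 9 genes), 3 held a tumour far from the others of its group. Chance would give about 1 in 20 for independent sets of equal spread. Here probe noise differed between tumours and the level and difference of a gene share its probes, so that rate is not exact. The difference of Rbl2 from its flank was -0.0626 in ARF-110, against -0.41 to -0.33 in the other tumours. The value in ARF-110 comes from 2 of the 6 Rbl2 probes. The difference of Ccnd2 was -0.682 in ARF-128, against -0.01 to 0.08 in the other tumours, and the sparser array of ARF-128 gave 0.17. The difference of Cdkn1a was 0.743 in ARF-128, against -0.35 to -0.07 in the other tumours, and the sparser array gave -0.86.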

How the results depend on the processing

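Members below their flanks numbered 1 as reported (Rbl2) and 0 with normexp background correction, over probes shared by both designs and with the scan day as a random block; they numbered 4 (Rb1, Rbl2, Cdk4 and Cdkn1a) when the ARF-128 arrays were averaged, and the same 4 within the 3 tumours of 1 scan day. Leaving out 1 tumour gave 0 to 2. In these settings limma called 0% (scan day block) to 26.8% (3 tumours) of all genes as lower. Members above their flanks numbered 0, and 1 (Ccnd1) once genes with 4 or 5 tumours were admitted, as did those with a level above 0. Levels below 0 numbered 0, but 1 with the sparser ARF-128 array and over shared probes (Rb1), 1 within the 3 tumours (Cdk4) and 0 to 1 when 1 tumour was left out. Of all genes, 11.5%, 12.0% and 12.7% were called lower in the first 3 of these settings, and 0% to 10.1% when 1 tumour was left out. Lost pairs numbered 4, 0 with normexp and 1 to 4 when 1 tumour was left out. Of all pairs, 9.35%, 0.76% and 3.98% to 11.6% were lost in these settings, so the fall with normexp was not particular to these genes. Gained pairs numbered 8, 5 with normexp, 5 at a threshold of 0.35 and 5 to 7 when 1 tumour was left out. Of all pairs, 13.7%, 10.4%, 10.1% and 11.8% to 15.0% were gained in the same order. The added settings (GC content, 3 tumours, 4 or 5 tumours) were chosen after seeing the data.

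Of 354 values of single genes under alternatives, 296 kept their direction and side of the threshold, 12 passed it anew, 14 no longer passed and 32 turned direction, for Rbl2, Cdk6, Ccnd2, Ccnd3 and Cdkn1a. The Rbl2 level turned to 0.0422 with normexp, 0.00215 without centring, 0.0104 with the sparser ARF-128 array, 0.152 over shared probes, 0.0209 after GC adjustment, and -0.0971 to 0.0874 when 1 tumour was left out. The Cdk6 difference was -0.00264 with normexp, -0.00945 after GC adjustment and -0.015 to 0.0541 when 1 tumour was left out, and its level 0.016 with the sparser ARF-128 array and 0.0298 over shared probes. The Ccnd2 difference was 0.0696 with the sparser ARF-128 array, 0.0424 within the 3 tumours and -0.146 to 0.0442 when 1 tumour was left out, and its level 0.0679 with the sparser array and -0.219 to 0.0183 when 1 tumour was left out. The Ccnd3 difference was 0.0374 over shared probes, 0.00555 with a flank of 2 Mb, 0.0652 with the scan day block and -0.128 to 0.0475 when 1 tumour was left out. The Cdkn1a difference was 0.0786 with the scan day block, 0.0536 after GC adjustment and -0.222 to 0.0521 when 1 tumour was left out. Its level was -0.0444 with normexp, -0.22 with the sparser ARF-128 array, -0.0762 with the mean of both, -0.00779 within the 3 tumours and -0.0691 to 0.148 when 1 tumour was left out. The causes were not tested. No paired analysis was possible because the tumours form 1 group. Probe noise and the single probes of Cdk4, Ccnd1, Ccnd3 and Cdkn1a limit these values.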
